A study of Mus musculus with 6 samples.

Results

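Long noncoding RNAs (lncRNAs) were followed in the livers of ethanol-exposed mice that had or had not lost the hyaluronan receptor CD44 from their myeloid cells. The set held the genes that GENCODE M21 (mouse build GRCm38) types as lincRNA, antisense or processed_transcript and that had at least 50 raw read counts in at least 3 of the 6 livers, with 1 gene left out. It came to 237 genes, out of 9152 genes of those types and 54532 genes in the count table. By type there were 103 lincRNAs, which lie between genes, 69 antisense genes, transcribed against a coding gene, and 65 processed transcripts, a mixed class without a long reading frame. Members were thus chosen by gene type and by their counts in these livers, so their being expressed is no finding.

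The 6 livers came from C57BL/6J/Rj mice whose Cd44 gene is floxed on both alleles (Cd44flox/flox). The 3 controls, labelled WT, were littermates of genotype LysM+/+, with the floxed gene and no Cre. The 3 knockouts, labelled CD44 KO LysM, were LysMcre/+, in which Cre is made from the lysozyme gene Lyz2 of macrophages, monocytes and neutrophils. Every mouse of both groups drank a liquid Lieber-DeCarli diet with 6% ethanol by volume for 10 days, was gavaged with 5 g ethanol per kg on day 11 and was killed 9 hours later. No liver without ethanol and no Cre-only group was analysed here, so Cd44 loss, Cre and the interrupted Lyz2 allele cannot be told apart. The libraries were made from RNA captured on poly-T beads, so lncRNAs without a poly-A tail are poorly represented.

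An lncRNA is a transcript with no long protein-coding frame. Some work as RNA, such as Xist, which coats and silences an X chromosome, or Neat1, the scaffold of nuclear paraspeckles. Others matter through the act of transcription next to a coding gene, as Airn does over Igf2r, and many are carriers whose introns release small nucleolar RNAs (snoRNAs, guides for modifying ribosomal RNA) or microRNAs. In liver, antisense and divergent lncRNAs are common beside genes of the hepatocyte programme.

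Sequences are given first for the carriers on which the later values turn. Dleu2, which rose, and E130102H24Rik, whose call was lost under several settings, carry miR-16-1 and miR-101a, and Mir17hg, which did not pass the test, carries a cluster in which miR-17-5p and miR-20a-5p share 1 seed and miR-19a-3p and miR-19b-3p another. The mature microRNAs (RefSeq, GRCm38.p6) are written 5′ to 3′ with the seed, bases 2 to 8, in capitals.
Dleu2, mmu-miR-16-5p: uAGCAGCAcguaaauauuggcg
E130102H24Rik, mmu-miR-101a-3p: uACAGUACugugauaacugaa
Mir17hg, mmu-miR-17-5p: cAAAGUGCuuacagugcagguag
Mir17hg, mmu-miR-20a-5p: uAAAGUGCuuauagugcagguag
Mir17hg, mmu-miR-19a-3p: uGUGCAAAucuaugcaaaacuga
Mir17hg, mmu-miR-19b-3p: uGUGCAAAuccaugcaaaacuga
Snhg15 and Snhg18, which fell, each carry 1 snoRNA of a different family. Snora9 is shown with the ACA of an H/ACA snoRNA in capitals, and Snord123 with its TGATGA (C box) and CTGA (D box) in capitals, both from the GENCODE M21 transcripts. Snora9 lies at chr11:6528033-6528165 and Snord123 at chr15:32241853-32241923, both on the minus strand.
Snhg15, Snora9: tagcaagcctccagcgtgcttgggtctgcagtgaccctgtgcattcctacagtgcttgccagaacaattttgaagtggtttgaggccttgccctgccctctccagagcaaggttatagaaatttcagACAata
Snhg18, Snord123: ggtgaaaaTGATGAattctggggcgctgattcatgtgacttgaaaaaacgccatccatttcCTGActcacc
The counts measure the polyadenylated carrier, not these small RNAs.

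As a check of the labels, Cd44 was at 32.6, 34.8 and 26.4 CPM in the controls but only 2.11, 1.92 and 3.01 CPM in the knockouts, where CPM are counts per library of 1e6 reads after TMM scaling, a trimmed mean that sets the libraries to a common level. Library totals ran from 18428224 to 24042917 counts, so 3 counts, the limit a count of 0 allows, equalled 0.119 to 0.148 CPM. All 8 shared myeloid markers were lower in the knockouts (summed 557 to 593 CPM in controls against 144 to 275 CPM). They include Lyz2, the gene that carries Cre, and the other 7 summed to 329 to 397 CPM against 107 to 209 CPM. Also lower were 5 of 6 Kupffer cell and 4 of 5 neutrophil markers. Of the 5 hepatocyte markers measured 3 were higher (Ttr, Cps1 and Serpina1c), as were all 3 erythroid markers. All 5 hepatocyte markers together summed to 62514 to 75136 against 87811 to 118877 CPM. Most of that was Alb (52693 to 60300 against 72352 to 96513 CPM), which like Apoa1 did not pass the test. No marker of B and plasma cells, endothelium or bile duct cells passed the test, 1 T and NK cell marker and 2 stellate cell markers were lower, and no list had a marker at 0 in every liver. The part of these cell types in the lncRNA results was not tested, and in whole liver fewer cells of a type and less RNA per cell cannot be told apart. The labels name 3 mice in each group but not separate litters or days, so p-values measure the spread between these 6 livers.

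Together the 237 lncRNAs took 0.346, 0.385 and 0.400% of all counts in the controls and 0.352, 0.405 and 0.362% in the knockouts. The groups overlapped, with means of 0.377% ± 0.0276 and 0.373% ± 0.0282 (SD, n = 3 each). No test is given, since the members were chosen by these counts. Xist, Malat1, Gm42047 and Neat1 held 33.9% of all member counts.

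Among individual lncRNAs, more stood higher than lower in the knockouts. A gene was called at an adjusted p under 0.05 in edgeR's quasi-likelihood test with Benjamini-Hochberg adjustment over all 14758 genes tested. In that fit 25.0% of all tested genes were called, 11.9% higher and 13.1% lower, while 83 of the 237 lncRNAs (35.0%) were called higher, 17 (7.17%) lower and 137 not. The counts over all members cannot be read as they stand. The reason is that 33 members reached 50 counts in the 3 knockouts and in no control, and 8 in the 3 controls and in no knockout. The raw counts of such genes had to differ between the groups. Of those, 32 of 33 were called higher and 6 of 8 lower.

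The 122 lncRNAs with at least 50 counts in all 6 livers do not have that limit. Of these, 35 (28.7%) were called higher and 8 (6.56%) lower, beside 13.4% higher and 11.4% lower among 10257 protein-coding genes that met the same threshold. Their median log2 fold change (knockout against control) was 0.35, beside 0.02 for those coding genes. The 2 groups of livers did not overlap for 66 of the 122 (54.1%), beside 43.7% of the coding genes and 43.8% of all tested genes. Scaling by library totals in place of TMM moved the median of all tested genes from -0.01 to -0.26, and then 20 of the 122 were called higher and 15 lower. Over all tested genes that scaling called 904 higher and 3698 lower, where TMM called 1751 and 1933. The medians kept their order, at 0.10 for the 122 lncRNAs and -0.23 for the coding genes.

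Fits with 1 liver left out gave fewer calls, also over all tested genes (2275 to 3413, against 3684 with all livers). Whether a given liver or the smaller number of livers lowered the counts was not tested. Of the 122, 21, 19 and 26 were called higher without control 1, 2 and 3, and 23, 26 and 31 without knockout 1, 2 and 3. Called lower were 6 without control 1 or knockout 1, 5 without control 2, control 3 or knockout 2, and 4 without knockout 3. Over all 237, control 2 left out gave 52 higher and 9 lower, control 1 left out gave 11 lower, and knockout 3 left out gave 10 lower. The remaining 74 lncRNAs reached the threshold in other mixes of livers, and 16 were called higher and 3 lower, with a median log2 fold change of 0.43. Over all tested genes 11.9% were called higher and 13.1% lower. Such mixes can hold more livers of 1 group than of the other, so the values of the 74 are not free of the selection either.

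**Figure D1:**
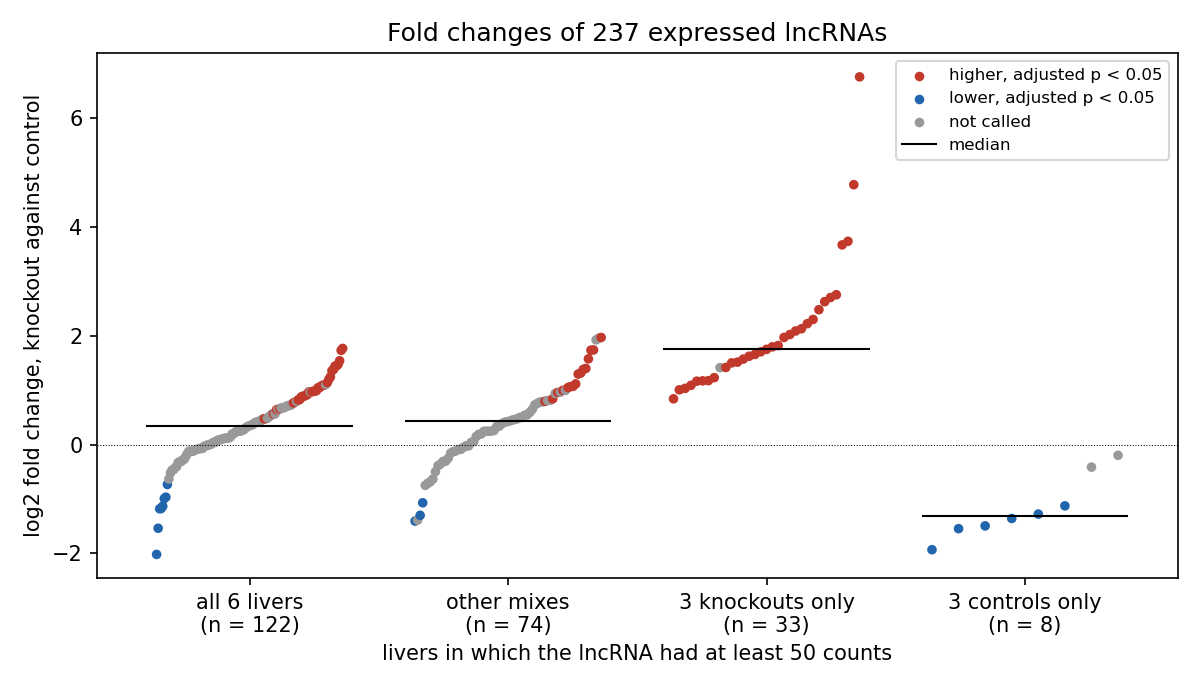
Each point is 1 of the 237 lncRNAs, placed by the livers in which it had at least 50 counts and, on the vertical axis, by its log2 fold change in knockout against control; colours mark the calls and black lines the medians. The median of the 122 lncRNAs above the threshold in all 6 livers is 0.35. For the 33 and 8 that reached the threshold through 1 group, the raw counts of the groups had to differ by the rule.

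Entry to the set was a matter of a few counts at its edge. Just inside, Gm13021 had 20, 15 and 20 counts in the controls and 50, 60 and 52 in the knockouts, 4930480K23Rik had 22, 10 and 34 against 50, 58 and 50, and Gm16973 had 60, 54 and 50 against 40, 46 and 43. Just outside, 4921531C22Rik had 43, 28 and 29 counts in the controls and 49, 51 and 52 in the knockouts, 1810044D09Rik 49, 52 and 36 against 40, 78 and 48, and A330040F15Rik 38, 40 and 62 against 29, 54 and 48.

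Calls were also counted by gene type, beside 11.9% higher and 13.1% lower over all tested genes and 13.4% and 11.4% over the coding genes above the threshold in all livers. Of the 69 antisense genes, which include 15 that reached the threshold only in the knockouts and 2 only in the controls, 30 were called higher, 2 lower and 37 not, and of the 30 of them above the threshold in all livers 10 were higher, 0 lower and 20 not. DESeq2 and limma-voom called 0 of those 30 lower as well, and in edgeR 0 were lower at an unadjusted p under 0.05. Of the 103 lincRNAs, 37 were higher and 10 lower (15 and 4 of the 48 above the threshold in all livers). Of the 65 processed transcripts, 16 were higher and 5 lower (10 and 4 of 44). The difference between the types was not tested.

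The levels of the set spanned a wide range, and 5 of the 10 most abundant members passed the test, beside 25.0% of all tested genes. Cct6a and Ifi30, which RefSeq types as protein-coding, are among these 10. Per kilobase of exon, the mean level over the 6 livers was highest for BC024386 at 73.9 CPM per kb, followed by AW112010 at 69.6, Malat1 at 62.8, 2410006H16Rik at 42.1, Gm26917 at 34.2, Gm42047 at 33.5, 0610005C13Rik at 32.9, Cct6a at 30.3, Ifi30 at 30.1 and 2900097C17Rik at 29.0 CPM per kb. BC024386 and 0610005C13Rik rose, and Gm26917, Gm42047 and Ifi30 fell. BC024386 (chr7:140906014-140907983, plus strand) was at 35.9, 48.8 and 87.7 CPM in the controls and 171, 211 and 191 CPM in the knockouts. The groups did not overlap, and it was 3.33-fold higher (log2 1.73, SE 0.29, adjusted p = 0.00484, edgeR).

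0610005C13Rik, antisense to the branched-chain aminotransferase gene Bcat2, had 41.7, 76.9 and 109 CPM in the controls and 135, 213 and 133 CPM in the knockouts. Its call was at the edge (log2 1.08, adjusted p = 0.0449, edgeR) and was lost, at adjusted p from 0.0555 to 0.112, without control 1, control 2 or any of the knockouts, with library totals (0.0738) and with a filter of 50 counts (0.0524). It shares 17.4% of its exon bases with Bcat2, which was also higher (log2 0.80, adjusted p = 0.0375). Among the others, Malat1, a nuclear speckle RNA, was at 349, 514 and 595 CPM against 340, 496 and 336 CPM, with groups that overlapped (adjusted p = 0.351).

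**Figure D2:**
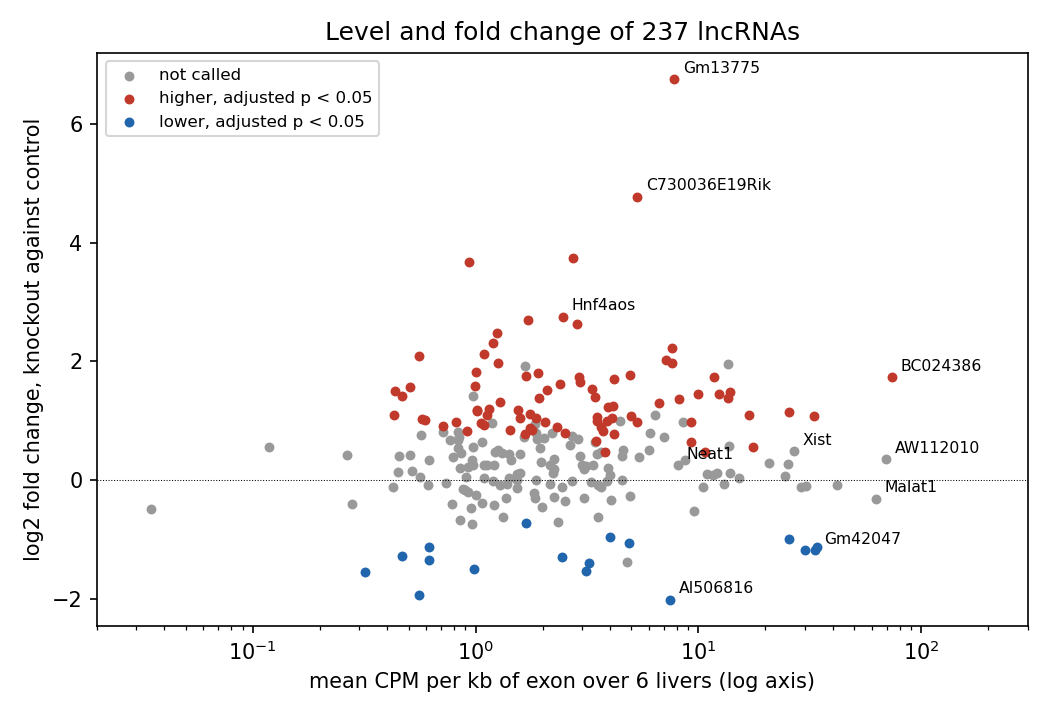
Each point is 1 of the 237 lncRNAs, with its mean CPM per kb of exon over 6 livers on a log axis and its log2 fold change in knockout against control; colours mark the calls. Called lncRNAs occur over most of the range, from under 1 CPM per kb to BC024386 at 73.9 CPM per kb.

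No nuclear or X-linked RNA passed the test. Of the 7 expressed members of that list edgeR called 0, with 2 at an unadjusted p under 0.05, while DESeq2 called 1 and limma-voom 0. Xist was present in every liver, at 354, 419 and 429 CPM in the controls and 485, 676 and 525 CPM in the knockouts. All knockouts lay above all controls, with a log2 difference of 0.49 (SE 0.16) that missed the threshold (adjusted p = 0.0576), while DESeq2 (0.0205) and edgeR without a filter (0.0362) called it. Firre, which helps anchor the inactive X near the nucleolus, was at 35.3, 28.0 and 32.7 CPM against 45.4, 35.7 and 46.5 CPM (log2 0.41, adjusted p = 0.067), and was called without knockout 2 (0.0286). Ftx, a gene of the X-inactivation centre, had 3.10, 1.45 and 2.39 CPM against 2.64, 3.99 and 2.71 CPM.

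Neat1 was at 154, 170 and 138 CPM in the controls and 183, 172 and 193 CPM in the knockouts. Its groups did not overlap, but the difference was small (log2 0.25, SE 0.12, adjusted p = 0.167) and was -0.0062 with library totals. The gene 2900097C17Rik, the mouse Norad, which binds Pumilio proteins, had 148, 146 and 152 CPM against 133, 144 and 133 CPM (log2 -0.12, adjusted p = 0.441, or 0.0272 with library totals). Over all 7 lists of lncRNAs with a named role, 33 genes were expressed, of which 4 were called higher, 4 lower and 25 not, a share near the 25.0% called over all tested genes (11.9% higher and 13.1% lower).

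Imprinted lncRNAs, made from 1 parental allele only, counted 3 expressed members. Airn (chr17:12741311-12860136, plus strand) is transcribed across the Igf2r promoter and silences Igf2r on the paternal allele. It measured 2.90, 3.97 and 2.26 CPM in the controls and 1.44, 1.35 and 1.38 CPM in the knockouts, with no overlap and a log2 fold change of -1.13 (SE 0.28). Airn reached 50 counts only in the controls, and its adjusted p of 0.0219 (edgeR) rose to between 0.0507 and 0.0879 without control 1, control 2, knockout 1 or knockout 3. Igf2r itself, whose body Airn overlaps on the opposite strand, was lower too (log2 -0.78, adjusted p = 0.00458). Kcnq1ot1 (2.10, 4.69 and 4.65 against 1.68, 4.28 and 2.12 CPM) and Snhg14, the Ube3a antisense transcript (1.95, 2.85 and 2.70 against 3.79, 3.03 and 4.14 CPM), did not pass.

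Calls among the snoRNA hosts were about as frequent as over all genes. Of the 15 expressed members of that list, 1 was called higher, 2 lower and 12 not, beside 25.0% of all tested genes called, with a median log2 fold change of -0.02, beside -0.01 for all tested genes. Gas5, for example, a host whose spliced RNA binds the glucocorticoid receptor, had 52.9, 37.7 and 40.2 CPM in the controls and 49.4, 48.4 and 44.4 CPM in the knockouts (adjusted p = 0.586, edgeR). Snhg1, Snhg5, Snhg6, Snhg8, Snhg12, Snhg17 and Zfas1 also had overlapping groups, with log2 differences from -0.09 to 0.25.

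Snhg18 fell. It measured 7.23, 6.24 and 7.35 CPM in the controls and 1.97, 2.93 and 2.96 CPM in the knockouts, and fell by 1.40 on the log2 scale (SE 0.22, adjusted p = 0.00354, edgeR). Its start is divergent from that of Sema5a, an axon guidance receptor gene, which was not called (log2 -0.79, adjusted p = 0.219). Snhg15 had 8.42, 6.00 and 7.31 CPM against 5.32, 2.55 and 3.25 CPM (log2 -0.97, adjusted p = 0.0388), and lost its call, at 0.063 to 0.119, without any of the controls or without knockout 2 or 3. Epb41l4aos had 6.08, 5.95 and 6.22 CPM against 8.39, 9.43 and 9.12 CPM (log2 0.56, adjusted p = 0.0245). Its call was lost, at 0.0507 to 0.0697, without any single liver, and with library totals it was 0.31 (adjusted p = 0.149).

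By position, 18 lncRNAs carry annotated snoRNAs, of which 1 was called higher, 3 lower and 14 not, a share near the 25.0% called over all tested genes (11.9% higher and 13.1% lower). The third of the lower ones was AI506816 (chr5:23698296-23712667, minus strand), which also had the largest decrease of the set in this fit, close to Gm38416 (log2 -1.93). Gm38416 fell further in limma-voom (-2.15 against -2.09), without control 3 (-2.06) and without knockout 2 (-2.76 against -1.78). AI506816 measured 48.5, 58.9 and 53.8 CPM in the controls and 12.1, 8.71 and 19 CPM in the knockouts, 4.05-fold lower (log2 -2.02, SE 0.25, adjusted p = 0.00141, edgeR). Its groups were far apart, and the nearest coding gene, the splicing kinase gene Srpk2, was not called (log2 0.35, adjusted p = 0.171).

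Of the 3 expressed microRNA hosts of the list, 1 was called higher and 2 were not called. Dleu2, whose transcript carries miR-16-1 and which lies in a region often lost in human leukaemia, had 6.27, 5.42 and 6.96 CPM in the controls and 12.3, 13.1 and 11.5 CPM in the knockouts. The groups did not overlap and it was 1.98-fold higher (log2 0.98, SE 0.15, adjusted p = 0.00342, edgeR). Mir17hg, the host of the growth-promoting cluster shown above, had 4.37, 3.24 and 3.48 CPM against 2.64, 2.16 and 2.12 CPM. All knockouts lay below all controls (log2 -0.68, adjusted p = 0.0625), and it was called with library totals (0.0196) and with a filter of 50 counts (0.0469).

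Mir22hg was at 29.4, 23.2 and 24 against 24.6, 31.1 and 27.3 CPM and overlapped. By position, 8 members hold a microRNA, and besides these and Ftx, Snhg20, 2900076A07Rik and the let-7 host 6720427I07Rik, none of them called, there was E130102H24Rik. That gene, the carrier of miR-101a, was not on the list and is described after its values were seen. It had 1.83, 2.08 and 3.22 CPM in the controls and 3.98, 5.97 and 4.29 CPM in the knockouts (log2 1.00, adjusted p = 0.0356), and lost its call, at 0.0527 to 0.106, without control 1, control 2 or any knockout, and at 0.0666 with library totals.

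**Figure D3:**
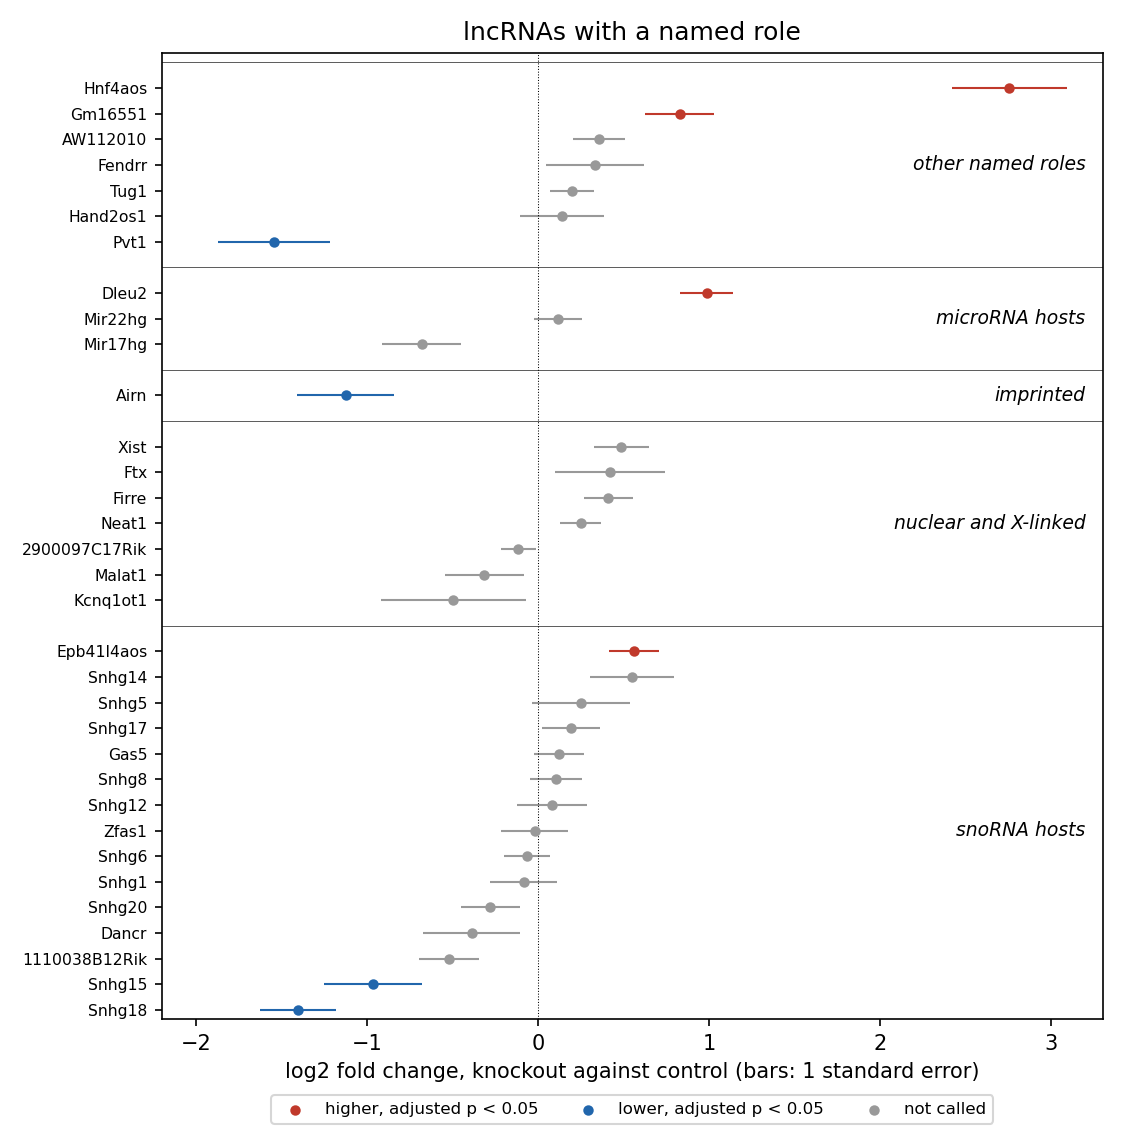
Log2 fold changes of the 33 expressed lncRNAs with a named role, with bars of 1 standard error and colours for the calls (3 livers per group); a gene on several lists is drawn once, so Kcnq1ot1 and Snhg14 stand outside the imprinted block. Most points lie within 0.5 of 0, while Hnf4aos, Gm16551, Dleu2 and Epb41l4aos were called higher and Airn, Pvt1, Snhg15 and Snhg18 lower.

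No immune lncRNA was called. Of the 3 expressed ones edgeR, DESeq2 and limma-voom each called 0, and 1 had an unadjusted p under 0.05 in edgeR. AW112010, which is induced in activated macrophages and T cells, had 48.9, 48.7 and 49.7 CPM in the controls and 62.8, 50.2 and 75.5 CPM in the knockouts (log2 0.36, adjusted p = 0.122, edgeR), and was called only without knockout 2 (0.0278). Malat1 and Neat1, the other members of that list, are given above. By contrast Ifi30, a lysosomal thiol reductase gene of antigen-presenting cells that GENCODE types as a processed transcript and RefSeq as protein-coding, had 49.1, 38.2 and 35.5 CPM against 17.5, 11.4 and 25.6 CPM. It fell by 1.17 on the log2 scale (SE 0.27, adjusted p = 0.0157; 0.0572 without knockout 1). The myeloid transcription factor gene Spi1 was at 28.8, 25.3 and 26.9 against 8.29, 7.94 and 15.0 CPM in the same livers, and the part of myeloid cells in the Ifi30 difference was not tested.

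Of the 4 expressed lncRNAs linked to p53 or MYC, Dleu2 rose, Gas5 and Tug1 did not pass, and Pvt1 fell. Pvt1 (chr15:62037986-62378096, plus strand) lies downstream of Myc and is often amplified with it in tumours. It measured 3.61, 3.72 and 2.61 CPM in the controls and 0.719, 1.11 and 1.58 CPM in the knockouts, and reached 50 counts only in the controls (log2 -1.54, SE 0.33). Myc had 53.2, 32.3 and 25.1 against 24.2, 10.4 and 25.0 CPM, with no overlap and a log2 difference of -0.89 that was not called (adjusted p = 0.107).

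Of 4 expressed lncRNAs beside or antisense to liver regulators, Hnf4aos and Gm16551 were called higher and Fendrr and Hand2os1 were not. Hnf4aos (chr2:163493807-163541720, minus strand) runs against Hnf4a, the gene of a master regulator of hepatocyte identity, without sharing an exon base with it. It measured 0.437, 0.870 and 0.522 CPM in the controls and 3.40, 5.15 and 3.75 CPM in the knockouts, 6.75-fold higher (log2 2.75, SE 0.34), and reached 50 counts only in the knockouts. Hnf4a was at 603, 597 and 644 against 852, 864 and 579 CPM, with overlapping groups (log2 0.32, adjusted p = 0.217). Gm16551, which lies near the hepatocyte factor gene Onecut1, had 2.42, 2.71 and 2.22 against 4.46, 4.09 and 4.49 CPM (log2 0.83, adjusted p = 0.0203). It lost its call, at 0.051 to 0.076, without control 1, control 3 or knockout 1, and with library totals. Onecut1 was called higher (log2 1.17, adjusted p = 0.00361).

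The 12 largest increases all belonged to lncRNAs that reached the threshold only in the knockouts, so their values are given as a description. Gm13775 (chr4:61783123-61801286, plus strand) had 7 counts in all controls together and 720 in all knockouts, a ratio of 114 per library size (95% interval 55.2 to 286, for counting error only). In CPM it was 0.119, 0.0484 and 0.130 against 13.7, 11.3 and 9.91. It lies in the cluster of major urinary protein (Mup) genes and only 65.1% of its exon bases are free of other genes, so reads from near-identical Mup copies may be counted there, and its value is uncertain.

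C730036E19Rik (chr1:151138034-151142345, plus strand), a lincRNA whose exons overlap no other gene, was at 0.278, 0.290 and 0.652 CPM in the controls and 10.3, 17 and 6.70 CPM in the knockouts (log2 4.78, SE 0.46). Gm35986 followed at log2 3.74 (4.57 without control 2). It is divergent from Elovl6, a fatty acid elongase gene, which was higher (44.4, 74.4 and 58.7 against 197, 88.5 and 205 CPM, adjusted p = 0.0127). Hectd2os was at log2 3.67 (4.46 without control 2) although Hectd2, which it overlaps over 46.1% of its exon bases, was not called (log2 -0.22, adjusted p = 0.612).

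The other 7 of the 12 were, in falling order of log2 fold change, Gm32063 (2.71), 5730414N17Rik (2.63), AC154912.1 (2.48, or 3.22 without control 3), Notumos (2.30), Gm49431 (2.22), Gm15318 (2.13) and D230017M19Rik (2.09), beside Hnf4aos. Notumos, antisense to the gene of the Wnt deacylase Notum, had 0.477, 0.725 and 2.00 CPM against 4.17, 7.51 and 4.14 CPM. Its log2 fold change was 3.16 without control 3, and its adjusted p rose to 0.0505 without control 2. Notum was higher as well, at 10.5, 14.5 and 16.8 against 40.9, 63.6 and 30.7 CPM. D230017M19Rik overlaps Pecr, a peroxisomal enoyl-CoA reductase gene that was higher (54.4, 59.4 and 69.5 against 167, 181 and 141 CPM).

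Among lncRNAs above the threshold in all livers, the 6 largest increases were named after their values were seen. They were 0610031O16Rik (log2 1.77), BC024386 (1.73), B630019A10Rik (1.54), Gm48633 (1.48), Gm30262 (1.45) and Gm20319 (1.44). 0610031O16Rik (chr3:138210716-138240405) had close replicates, 5.72, 5.46 and 5.48 CPM in the controls and 18.5, 19.6 and 18.8 CPM in the knockouts (SE 0.12, adjusted p = 0.000179, edgeR). It shares coding exon bases with the alcohol dehydrogenase gene Adh7, which was at 7.51, 9.14 and 7.44 against 18.7, 20.6 and 13.7 CPM (adjusted p = 0.00382).

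B630019A10Rik, near the sialyltransferase gene St6gal1, was at 13.9, 13.3 and 15.8 against 39.2, 49.3 and 37.0 CPM (adjusted p = 0.000595), while St6gal1 was not called (log2 -0.04). Gm20319 overlaps Il1rap, the accessory chain of the interleukin-1 receptor, and both were higher (6.71, 6.19 and 9.44 against 20.8, 23.5 and 16.6 CPM for Gm20319; Il1rap by 1.29 on the log2 scale, adjusted p = 0.000961). Gm48633 lies near the apolipoprotein B gene Apob, which was not called (log2 0.15). Gm30262 lost its call, at 0.0584 to 0.0798, without control 1, control 2 or knockout 2.

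The 12 largest decreases ran from log2 -2.02 for AI506816 to -1.13 for Gm26917. Gm26809 had 13.7, 14.7 and 13.4 CPM in the controls and 3.40, 5.97 and 5.03 CPM in the knockouts (log2 -1.54, SE 0.21, adjusted p = 0.00188, edgeR), with groups well apart. Gm19705 had 5.44, 4.11 and 6.70 against 1.92, 1.83 and 2.86 CPM (log2 -1.30, adjusted p = 0.0115). Gm42047, the lncRNA with the third largest share of member counts, had 158, 251 and 378 against 127, 108 and 112 CPM (log2 -1.18, adjusted p = 0.0166), so that its controls differed among themselves more than its knockouts did.

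Gm26917 had 248, 105 and 116 CPM in the controls and 60.6, 82.7 and 70.8 CPM in the knockouts. Control 1 stood apart, and without it the log2 fold change went from -1.13 to -0.62, while the call was lost without knockout 1 (adjusted p = 0.103) or knockout 3 (0.0729). Gm38416 (-1.93), Gm14221 (-1.49), Gm15638 (-1.36) and Gm49797 (-1.28) reached 50 counts only in the controls. Gm38416 lay at -2.76 without knockout 2 and lost its call, at 0.0536 to 0.0692, without control 1, control 2, knockout 1 or knockout 3. Gm14221 lost it without control 2 or 3 (0.0737 and 0.0549), and Gm49797 without any control or without knockout 2 or 3 (0.0589 to 0.108). Gm38416 and its nearest coding gene, the dehydrogenase gene Sdr42e1, went in opposite directions, as Sdr42e1 was called higher (52.5, 69.8 and 58.2 against 165, 211 and 141 CPM).

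**Figure D4:**
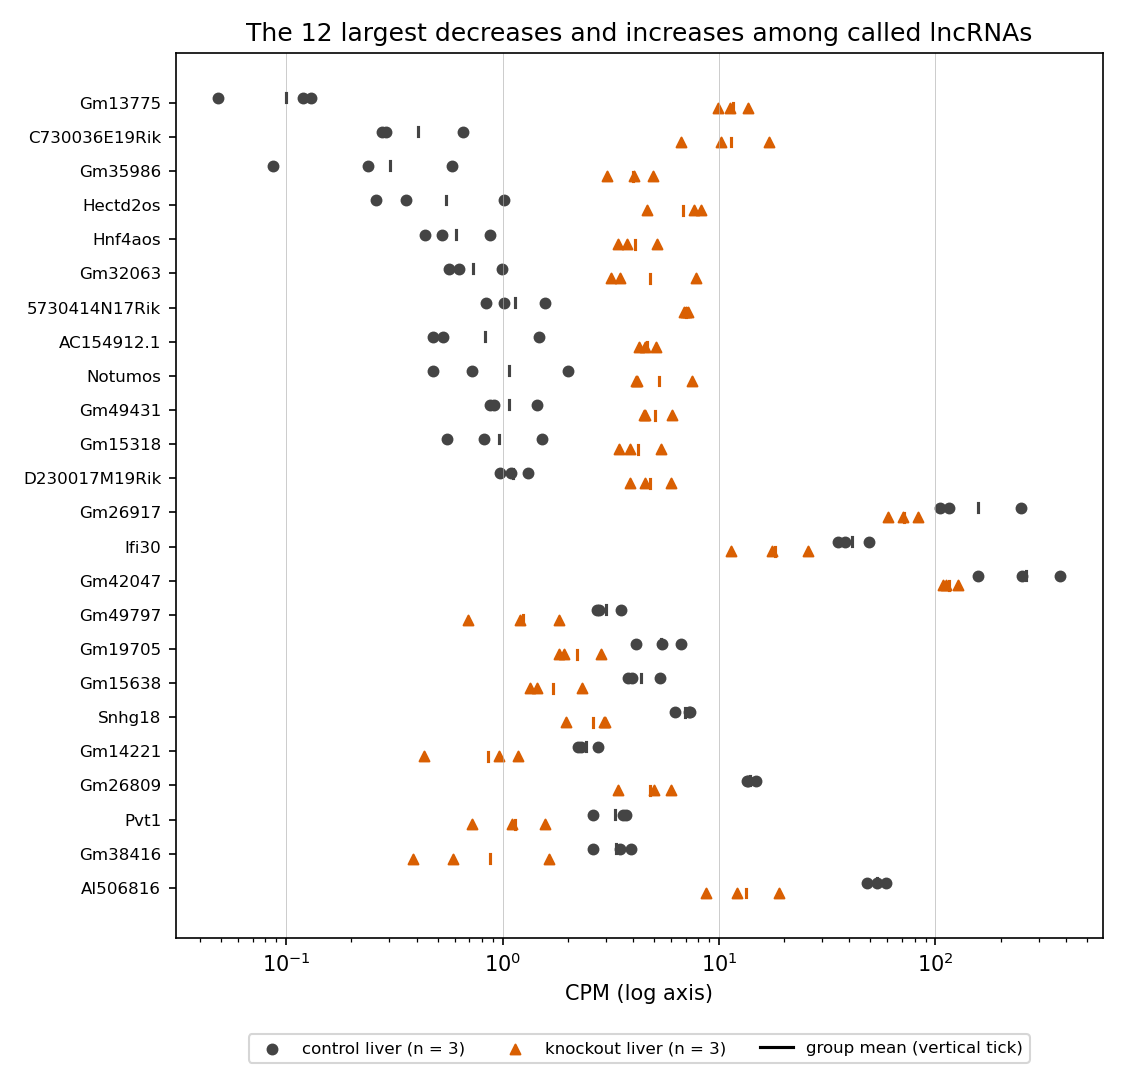
CPM in each of the 3 control (circles) and 3 knockout livers (triangles) on a log axis for the 12 largest decreases and the 12 largest increases among called lncRNAs, with vertical ticks at the group means. By the rule that chose them no pair of groups overlaps, and all 12 increases start from control levels of 2.00 CPM or less.

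Overlap with coding exons bears on what a count can mean here, because the strand setting of the counting is not given in the sources used here: without strand, reads of an antisense gene and of the coding gene it overlaps cannot be told apart. Exons of 52 of the 237 lncRNAs share bases with a coding exon, a median of 8.34% of their exon length and at most 63.8%, and for 49 of them the partner lies on the opposite strand. Of these 52, 26 were called higher, 1 lower and 25 not. A further 35 share bases only with noncoding exon parts of a coding gene, and 7 of them were higher, 1 lower and 27 not. The remaining 150 share no exon base with a coding gene, and 50 of them were higher, 15 lower and 85 not. Over all tested genes 11.9% were called higher and 13.1% lower.

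Without the 52, more lncRNAs were again called higher than lower. Of the 185 lncRNAs free of coding exons, 57 were called higher and 16 lower, and these fell to 35 and 9 without control 2, 37 and 12 without knockout 1, and 51 and 10 without knockout 3. With library totals, which called 904 of all tested genes higher and 3698 lower, 39 were higher and 23 lower. The 185 include lncRNAs that reached the threshold through 1 group. Over all tested genes 11.9% were called higher and 13.1% lower. Of the 100 of them above the threshold in all livers, 26 were higher, 8 lower and 66 not, with a median log2 fold change of 0.30. For the 22 with coding overlap above the threshold in all livers, 9 were higher, 0 lower and 13 not by edgeR (0 lower at an unadjusted p under 0.05, and 0 by DESeq2 or limma-voom), with a median of 0.53. Overlap with any other gene, noncoding ones included, left a median of 96.7% of exon length private to the lncRNA, 107 lncRNAs fully private and 8 under 50%.

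Annotation also touched the set in another way. RefSeq held 185 of the 237, and called 168 of them lncRNA, 13 protein-coding, 2 pseudogenes and 2 transcribed pseudogenes. Cct6a, a chaperonin subunit gene, and Ptpmt1, a mitochondrial phosphatase gene, were among the 13. The 168 gave 61 higher and 10 lower calls, where the same fit called 11.9% of all tested genes higher and 13.1% lower. These 168 include lncRNAs that reached the threshold through a single group, so their counts are not free of that selection. Of the 87 of them above the threshold in all livers, 28 were higher, 3 lower and 56 not (median log2 fold change 0.43). Among coding genes above the threshold in all livers, 13.4% were called higher and 11.4% lower.

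Each lncRNA was also set beside its paired coding gene, the one it overlaps or else the nearest within 50 kb. A pair was found for 214 of the 237, and 191 partners were tested. Of the 65 called-higher lncRNAs in these pairs, 22 had a partner called higher, 0 a partner called lower by edgeR and 43 a partner not called (DESeq2 and limma-voom called 0 lower, and 2 were lower in edgeR at an unadjusted p under 0.05). Of the 14 called lower, 4 had a lower, 1 a higher and 9 an uncalled partner. These counts include lncRNAs that reached the threshold through 1 group. In the 99 tested pairs whose lncRNA was above it in all livers, 8 of 29 called-higher lncRNAs had a partner called higher and 21 an uncalled one, and 1 of 5 called lower had a partner called lower. Over all coding genes above the threshold in all livers, 13.4% were called higher and 11.4% lower.

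Across the 191 pairs, Pearson's r between the log2 fold changes of lncRNA and partner was 0.34 and Spearman's rho 0.40. By position r was 0.46 for 47 pairs that share coding exon bases and 0.56 for 34 that share only noncoding exon bases. It was 0.56 for 15 whose gene bodies overlap without a shared exon, and 0.16 for 95 without overlap. For 51 tested pairs with starts within 1 kb on opposite strands, r was 0.52. These are descriptions across genes, which are not replicates, of values from the same 6 libraries, and overlapping pairs may also share reads. Of all 64 lncRNAs with such a divergent start, 19 were called higher and 1 lower. Of the 37 of them above the threshold in all livers, 7 (18.9%) were higher and 0 lower by edgeR, with 1 lower at an unadjusted p under 0.05 and 0 by DESeq2 or limma-voom, beside 13.4% and 11.4% of coding genes.

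**Figure D5:**
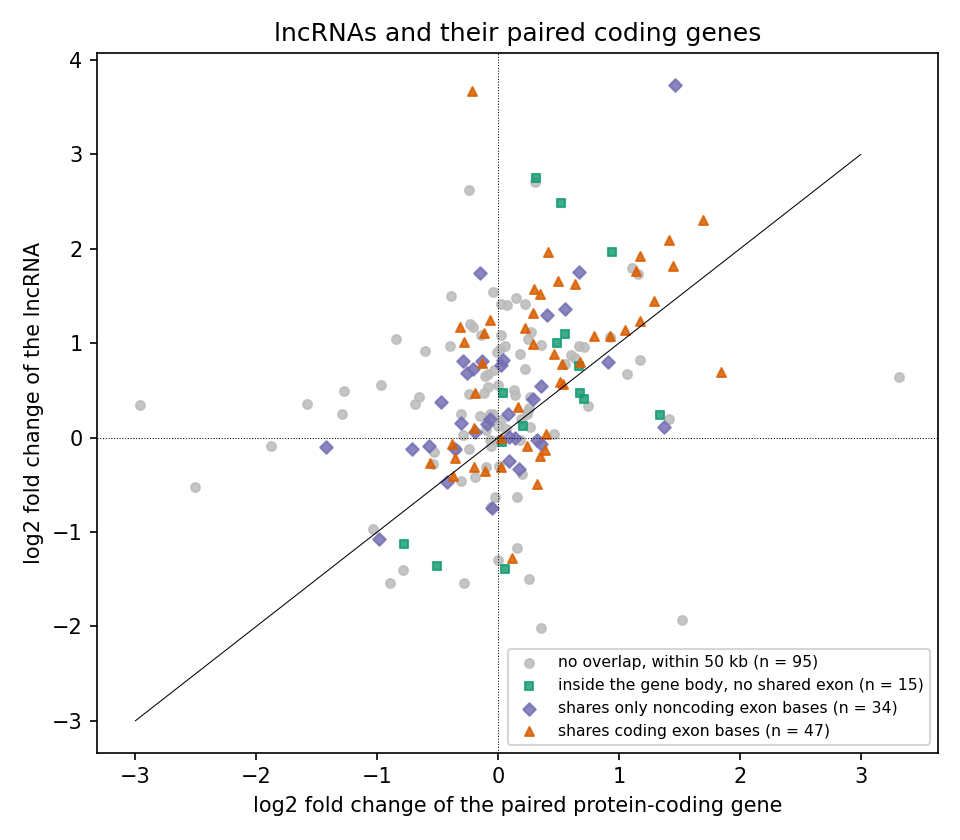
Log2 fold change of each lncRNA against that of its paired protein-coding gene for 191 pairs, with symbols for their relation. The diagonal marks equal change, and the class labelled inside the gene body holds any overlap of gene bodies without a shared exon. Pearson's r was 0.46 to 0.56 in the 3 classes that share exon bases or a gene body and 0.16 for pairs without overlap; whether these differ was not tested.

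Start regions of the members were read from RefSeq (GRCm38.p6), as 300-base windows from 250 bases before to 50 after the start, and 158 members had one. CpG content differed in the values, with no test: the median observed over expected ratio was 0.322 for 53 windows of lncRNAs called higher, beside 0.685 for 95 windows of members not called, 0.397 for 10 of members called lower and 0.389 for the first window of all 27025 genes. Here and in the motif shares below, the windows called higher include lncRNAs that reached 50 counts only in the knockouts, such as C730036E19Rik. No split by that threshold was made. Single windows departed from these medians. C730036E19Rik, the lincRNA with the largest increase outside the Mup cluster, had a ratio of 0.157, but Dleu2, also called higher, had 0.856. AI506816, called lower, had 0.644. The windows of these 3 are written 5′ to 3′ on the strand of the gene, and capitals mark the motif matches described after them. They lie at chr1:151137784-151138083 (plus strand), chr5:23712618-23712917 (minus strand) and chr14:61682324-61682623 (minus strand).
C730036E19Rik: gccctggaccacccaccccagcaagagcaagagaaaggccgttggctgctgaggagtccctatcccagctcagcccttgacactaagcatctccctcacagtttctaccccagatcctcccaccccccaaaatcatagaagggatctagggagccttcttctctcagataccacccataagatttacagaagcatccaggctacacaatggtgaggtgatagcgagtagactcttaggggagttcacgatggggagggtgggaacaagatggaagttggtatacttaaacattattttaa
AI506816: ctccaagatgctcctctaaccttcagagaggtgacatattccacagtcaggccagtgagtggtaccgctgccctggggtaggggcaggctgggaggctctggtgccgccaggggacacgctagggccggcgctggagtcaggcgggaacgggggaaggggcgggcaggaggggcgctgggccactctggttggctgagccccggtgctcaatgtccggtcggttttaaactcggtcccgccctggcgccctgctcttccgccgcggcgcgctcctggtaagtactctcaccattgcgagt
Dleu2: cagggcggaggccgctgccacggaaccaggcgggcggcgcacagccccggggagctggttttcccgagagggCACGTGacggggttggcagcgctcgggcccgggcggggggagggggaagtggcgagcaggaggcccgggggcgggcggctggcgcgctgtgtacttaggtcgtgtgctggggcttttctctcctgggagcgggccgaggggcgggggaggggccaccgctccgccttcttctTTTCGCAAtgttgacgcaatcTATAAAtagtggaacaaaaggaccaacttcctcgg

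The windows were searched on both strands for 8 short motifs. TTGCNNAA, a core bound by C/EBP factors, occurred in 13 of the 53 windows of lncRNAs called higher (24.5%), 3 of the 10 of those called lower (30%), 7 of the 95 not called (7.37%) and 10.8% of all 27025 windows. TATAAA, the box bound by TBP, was in 17%, 30% and 13.7% of the same 3 groups and in 14.2% of all windows, and CACGTG, an E-box, in 11.3%, 20%, 11.6% and 7.24%. TGANTCA, an AP-1 core, was in 9.43%, 0 and 4.21%, beside 7.93% of all, and TTCNNNGAA, a STAT core, in 1.89%, 0 and 7.37%, beside 8.47%.

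CAAAGTCCA, an HNF4 core, was in 1 member window, and the longer HNF1 and NF-kB consensus motifs in none, beside 0.477%, 0.0074% and 0.385% of all windows. In the Dleu2 window the capitals mark CACGTG, a C/EBP match and TATAAA, and the windows of C730036E19Rik and AI506816 hold none of the 8. These matches describe letters and not bound sites, motifs may overlap, and the groups differ in CpG content, so nothing about the factors follows from them.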

How the data were processed

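Poly-A-selected RNA of 6 livers was analysed (3 WT, 3 CD44 KO LysM). The deposited values are raw counts per Ensembl gene, 1 column per mouse. Per the submitters' processing notes, which give neither role nor order, the authors used the build GRCm38.p6 with featureCounts 1.5.0-p3, HISAT2 2.0.5 and StringTie 1.3.3b. Strand setting, treatment of multimapping reads and annotation release are not given in the sources used here. Of 54532 identifiers, 54495 matched GENCODE M21, which gave types, exons and overlaps.

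All genes were filtered with filterByExpr, scaled by TMM and fitted in edgeR 4.0.16 (R 4.3.3) with its quasi-likelihood F test, no covariates and Benjamini-Hochberg adjustment. All 237 members passed the filter. The steps were tested on simulated counts. The standard error is the log2 fold change over the square root of F. Members and lists were chosen with earlier results of these data known. Named were list members, the 12 largest called changes without overlap in each direction, the 10 highest levels per kb, their paired coding genes and 3 genes on each side of the threshold. E130102H24Rik, Ptpmt1 and the 6 largest increases above the threshold in all livers were added after their values were seen. Alternatives were DESeq2 1.42.0, limma-voom (limma 3.58.1), RLE factors, library totals, 2 other filters, a replicate block, other thresholds and leaving out each liver. Counts of members above the threshold in all livers, and of RefSeq lncRNAs, were added after seeing the data.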

Additional observations from a re-analysis of the deposited data

How the results depend on the processing

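DESeq2, limma-voom, RLE factors and the other filters kept the counts of called lncRNAs within 1.5 times of 83 higher and 17 lower. Library totals gave 26 lower, and 20 higher and 15 lower among members above the threshold in all livers, beside 904 higher and 3698 lower over all tested genes. That threshold gave 35 higher and 8 lower, an adjusted p under 0.01 gave 39 and 3, and members that RefSeq also calls lncRNA gave 10 lower. Leaving out 1 liver gave 52 to 74 higher and 9 to 14 lower over all members, 35 to 51 and 9 to 14 without coding exon overlap, 19 to 31 and 4 to 6 above the threshold in all livers, and 2275 to 3413 calls over all genes, where 3684 were called with all livers. Mouse numbers recur in both groups, but deviations of same-numbered livers did not correlate (-0.03, 0.04 and -0.02), so the numbers were not taken as pairs. With the number as a replicate block, 75 lncRNAs were higher and 16 lower, and 3086 genes were called. Under the block E130102H24Rik (adjusted p = 0.0518), Epb41l4aos (0.0544), Gm26917 (0.0664) and Gm30262 (0.0569) were no longer called, and Firre (0.0448) and 1110038B12Rik (0.0443) were, and Gm38416 fell slightly more than AI506816 (log2 -2.08 against -2.07).

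For 64 named lncRNAs, 832 comparisons with an alternative kept direction and call in 747, lost the call in 55, gained it in 11 and changed sign in 19, none of them called. With library totals these were Gas5 (-0.13), Hand2os1 (-0.12), Mir22hg (-0.14), Neat1 (-0.0062), Snhg12 (-0.17), Snhg17 (-0.058), Snhg5 (-0.0078), Snhg8 (-0.15) and Tug1 (-0.061). Over the fits with 1 liver left out, the log2 fold change ran from -0.15 to 0.020 for Snhg6, -0.20 to 0.14 for Zfas1, -0.052 to 0.30 for Hand2os1, -0.076 to 0.28 for Snhg12, -0.21 to 0.044 for 2410006H16Rik, -0.24 to 0.032 for Cct6a and -0.23 to 0.094 for Snhg1. For each result that moved the cause was not tested. The members were lower and more variable than coding genes, and the part of depth in this was not tested: within a group the median SD of log2(CPM + 0.5) was 0.252 for members above the threshold in all livers and 0.171 for coding genes, whose median levels were 8.60 and 27.5 CPM.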
